A study of Mus musculus with 27 samples.

Results

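The genes described here are 10 markers of enteroendocrine cells, the hormone-secreting cells scattered through the lining of the gut. They are the granins *Chga* and *Chgb*, the hormone genes *Gcg*, *Pyy*, *Nts*, *Sct*, *Cck*, *Gip* and *Ghrl*, and the transcription factor gene *Neurod1*. They were chosen by name, matched by Ensembl gene identifier, and make up 10 of the 46078 genes in the count tables. RNA-Seq libraries came from the scraped ileal epithelium of 27 C57BL/6 mice, all male, which were sampled at postnatal day 56 and for which no other genotype or agent is named. Mice were gavaged every 4 d for 28 d with sesame oil vehicle (n = 3) or with TCDD (n = 3 per dose). The lower doses were 0.01 and 0.03 µg/kg, then 0.1 and 0.3 µg/kg, and the higher ones 1 and 3 µg/kg, then 10 and 30 µg/kg. TCDD (2,3,7,8-tetrachlorodibenzo-*p*-dioxin) persists in tissue and activates the aryl hydrocarbon receptor (AhR), which induces *Cyp1a1*.

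Enteroendocrine cells sense the contents of the lumen and release peptides and amines from dense-core granules. Granins are the structural proteins of those granules and are shared by most enteroendocrine types. In the distal small intestine, L cells are known for GLP-1 (from *Gcg*) and peptide YY, and N cells for neurotensin, while cholecystokinin, GIP and ghrelin are typical of more proximal gut and stomach. Single enteroendocrine cells often express several of these genes, and *Neurod1* acts late in their differentiation.

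Upstream sequences are shown for 3 members whose levels at 30 µg/kg TCDD differed in outcome, *Chga* and *Pyy* (higher) and *Gcg* (no call). Each is the 250 bases before a RefSeq transcription start in GRCm38.p6, 5′ to 3′ on the strand of the gene, from chr12:102554691-102554940 (+ strand), chr11:102107833-102108082 (− strand) and chr2:62483654-62483903 (− strand), respectively. Capitals mark matches, on either strand, to GCGTG (the core of the AhR response element), CAGATG (an E-box of the form bound by NEUROD1), TGACGTCA (the cAMP response element) or TATAAA (the TATA box).
*Chga*: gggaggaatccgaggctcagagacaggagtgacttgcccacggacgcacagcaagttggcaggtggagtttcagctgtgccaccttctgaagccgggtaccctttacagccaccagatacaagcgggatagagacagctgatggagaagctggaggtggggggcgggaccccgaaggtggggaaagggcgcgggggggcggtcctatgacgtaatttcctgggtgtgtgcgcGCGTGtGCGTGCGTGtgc
*Pyy*: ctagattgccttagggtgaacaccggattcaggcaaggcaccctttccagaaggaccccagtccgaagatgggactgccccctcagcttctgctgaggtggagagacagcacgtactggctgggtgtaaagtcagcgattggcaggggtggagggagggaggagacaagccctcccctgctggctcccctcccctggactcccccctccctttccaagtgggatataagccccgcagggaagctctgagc
*Gcg*: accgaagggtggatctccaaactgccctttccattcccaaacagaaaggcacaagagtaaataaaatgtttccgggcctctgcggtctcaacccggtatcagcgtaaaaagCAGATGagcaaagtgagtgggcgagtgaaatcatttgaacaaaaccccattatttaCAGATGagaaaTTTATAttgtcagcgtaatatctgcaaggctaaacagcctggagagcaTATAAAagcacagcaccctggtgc

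The *Chga* window held GCGTG 3 times, with first bases 18, 12 and 8 bases before the start, and the *Pyy* window held none of the 4 motifs. The *Gcg* window held CAGATG at 139 and 83 bases and the TATA box at 72 (reverse strand) and 24 bases before the start. Motifs were counted over windows of the 250 bases before each RefSeq start, as in the sequences shown, and bases after the start were not searched. All 10 members had such a window, 14 windows in all. GCGTG was present for 2 of the 10 members (*Chga* and *Neurod1*), CAGATG for 3 (*Gcg*, *Cck* and *Sct*), TGACGTCA for 1 (*Chgb*) and TATAAA for 2 (*Gcg* and *Sct*). Of 32851 RefSeq windows of the same length, 28.2% held GCGTG, 14.4% CAGATG, 1.55% TGACGTCA and 12.4% TATAAA. A match to these letters is a description of the sequence only.

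Each mouse had between 12.26 and 17.14 M reads counted on genes. *Cyp1a1* was at 0.117 ± 0.107 CPM (read counts scaled to library size; SD, n = 3) in vehicle and 1740.5 ± 620.9 CPM at 30 µg/kg TCDD. The ileal genes *Slc10a2* (bile acid uptake) and *Fabp6* (intracellular bile acid binding) were at 358.5 ± 39.1 and 1696.4 ± 179.3 CPM in vehicle, and *Gata4*, a transcription factor of more proximal intestine, was at 9.03 ± 7.18 CPM. Library indexes were used a first time in all mice from vehicle to 0.3 µg/kg and in 1 of 3 mice at 1 µg/kg, and again in the remaining 11 mice, as read from the indexes in the deposited names. High doses and second use therefore cannot be told apart outside 1 µg/kg. Scrapings are bulk samples, in which more cells of a type and more RNA per cell cannot be told apart.

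In vehicle ileum *Sct* and *Nts* were the most abundant of the mRNAs and *Neurod1* the least. To compare genes, CPM was divided by exon length in kb. *Sct* (secretin; 29.4 ± 2.52 CPM per kb) and *Nts* (neurotensin; 26.1 ± 2.86) were highest and overlapped. *Chgb* (16.0 ± 1.57), *Pyy* (15.5 ± 1.2) and *Gcg* (14.5 ± 1.7) followed and overlapped each other, and all were above *Chga* (8.49 ± 1.16). *Gip* was at 4.05 ± 1.54 CPM per kb, above *Ghrl* (1.49 ± 0.168) and *Cck* (1.45 ± 0.0404), which overlapped, and above *Neurod1* (1.22 ± 0.126; SD, n = 3 throughout). At 30 µg/kg TCDD the order began with *Nts* (55.5 ± 15.9), *Sct* (43.4 ± 9.42), *Chgb* (36.4 ± 2.17) and *Pyy* (31.2 ± 9.69), each overlapping the next, and *Chga* (18.2 ± 1.32) now overlapped *Gcg* (15.5 ± 4.04). *Gip* (4.56 ± 1.03), *Neurod1* (2.26 ± 0.206), *Cck* (1.76 ± 0.645) and *Ghrl* (1.66 ± 0.32) remained low, the last 3 overlapping in turn.

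**Figure D1:**
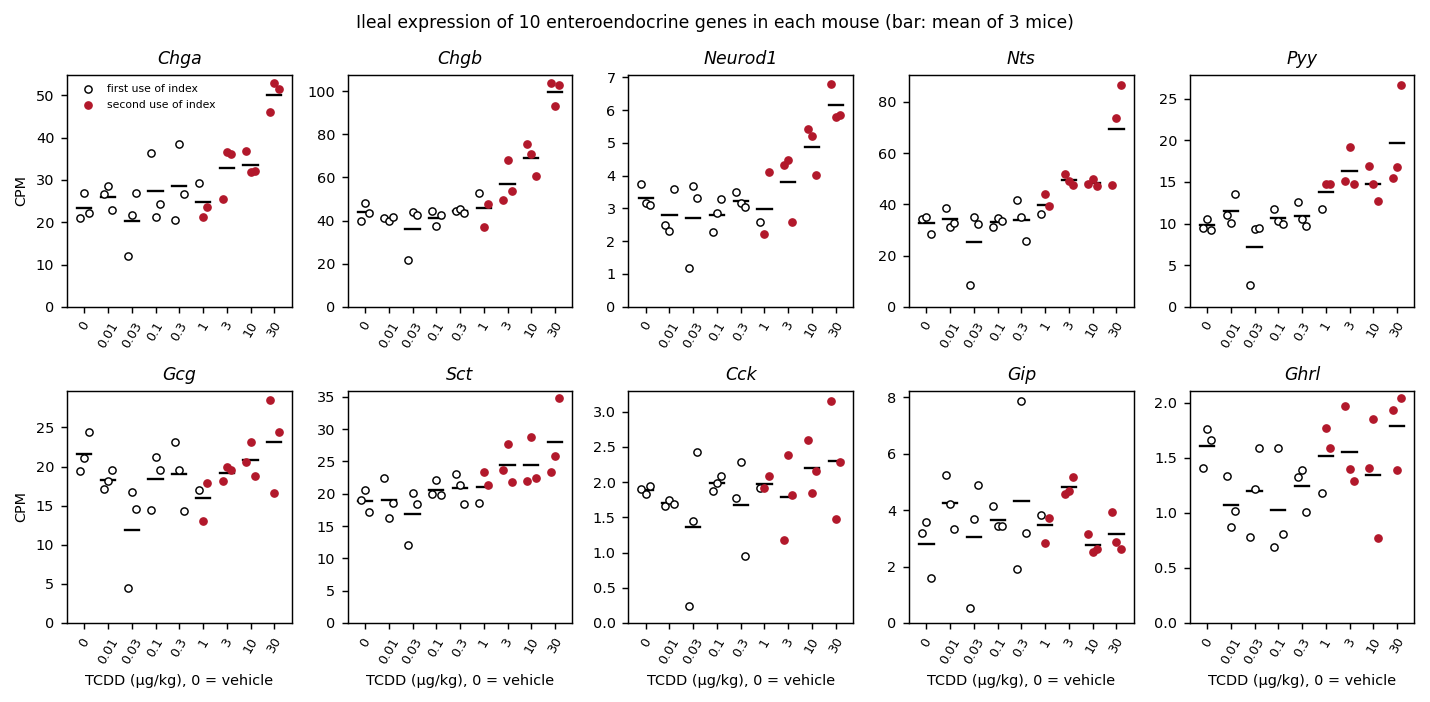
Expression of the 10 genes in each of 27 mice, in CPM on a linear axis from 0, against TCDD dose, with 3 mice per dose and a bar at each mean. Open points are mice of the first use of a library index and filled points of the second use. *Chga* and *Chgb* at 30 µg/kg lie above all mice at lower doses, while *Gcg* at 30 µg/kg overlaps vehicle.

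At 30 µg/kg TCDD, 5 of the 10 members were increased relative to vehicle, namely *Chga*, *Chgb*, *Nts*, *Pyy* and *Neurod1*, and 0 were decreased. A gene was called at an adjusted p of at most 0.05 (edgeR quasi-likelihood test, adjusted by Benjamini and Hochberg's method over the 16741 genes tested) and a fold change of at least 1.5. By that rule 9.4% of all tested genes were called at 30 µg/kg and 5.42% were called as higher. The median log2 fold change was 0.72 over the members and 0.02 over all genes tested. The summed CPM of the members was 153.0, 153.3 and 172.9 in vehicle mice and 280.5, 290.2 and 339.7 at 30 µg/kg.

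Both granins increased. *Chgb* (chromogranin B, chr2:132781278-132795079, + strand) was at 39.7, 48.3 and 43.4 CPM in vehicle mice and 103.6, 93.0 and 102.8 CPM at 30 µg/kg. The lowest treated value was well above the highest vehicle value, and the increase was 2.28-fold (log2 fold change 1.19 ± 0.17 SE, adjusted p = 5.89e-05). *Chga* (chromogranin A, chr12:102554969-102565028, + strand) was at 20.9, 27.0 and 22.3 CPM in vehicle mice and 46.0, 52.9 and 51.5 CPM at 30 µg/kg. It increased 2.14-fold (log2 fold change 1.10 ± 0.23 SE, adjusted p = 0.00236), with no overlap between the groups. Among all genes tested, 13.7% had all 3 mice at 30 µg/kg above all 3 vehicle mice. When index use was added as a covariate, *Chga* had a log2 fold change of 1.48 (adjusted p = 0.0505) and *Chgb* of 1.51 (adjusted p = 0.00796), the only member that remained called.

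*Chgb* was the only member called at 10 µg/kg, where 2.53% of all genes were called (1.76% as higher). Its levels were 75.7, 70.7 and 60.6 CPM, all above vehicle, a 1.58-fold increase (log2 fold change 0.66 ± 0.17 SE, adjusted p = 0.0312). It was also the only member called between 30 and 3 µg/kg, doses that share the second index use, where 0.89% of all genes were called (0.645% as higher). At 3 µg/kg its levels were 49.7, 67.9 and 53.9 CPM, and the 30 µg/kg level was 1.75-fold higher (log2 fold change 0.80 ± 0.17 SE, adjusted p = 0.0187). The number called at 10 µg/kg was 0 when vehicle mouse 2 or 4 or treated mouse 57 or 58 was left out. The number called between 30 and 3 µg/kg was 0 when mouse 50, 52, 67 or 68 was left out. Between 10 and 3 µg/kg 0 members were called by edgeR or DESeq2 and 0 had an unadjusted p under 0.05, where 0.0418% of all genes were called.

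Of the hormones of the distal gut, *Nts* and *Pyy* increased, while *Gcg* was not called. *Nts* (chr10:102481756-102490486, − strand), which encodes neurotensin, was at 34.1, 35.1 and 28.4 CPM in vehicle mice and 47.7, 73.6 and 86.7 CPM at 30 µg/kg. All treated values lay above vehicle but were widely spread, and the increase was 2.13-fold (log2 fold change 1.09 ± 0.28 SE, adjusted p = 0.00977). *Pyy* (chr11:102106676-102107832, − strand), which encodes peptide YY, a hormone that slows gut transit and reduces appetite, was at 9.5, 10.6 and 9.21 CPM in vehicle and 15.5, 16.8 and 26.7 CPM at 30 µg/kg. All treated values were again higher, with an increase of 2.01-fold (log2 fold change 1.01 ± 0.27 SE, adjusted p = 0.0122). The highest *Nts* and *Pyy* values came from mouse 68. Without it the log2 fold changes were 0.90 for *Nts* (adjusted p = 0.0594) and 0.72 for *Pyy* (adjusted p = 0.0985), and without vehicle mouse 4 the calls were also lost (adjusted p = 0.0566 and 0.0555).

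*Gcg* (chr2:62474530-62483650, − strand), the proglucagon gene that encodes GLP-1 and GLP-2, was at 19.4, 21.1 and 24.4 CPM in vehicle mice and 28.5, 16.6 and 24.4 CPM at 30 µg/kg. Treated mice lay above, below and level with vehicle, and the log2 fold change was 0.10 ± 0.27 SE (adjusted p = 0.843). At 3 µg/kg and again at 10 µg/kg, all treated mice lay above the highest vehicle mouse for *Nts*, *Pyy*, *Chgb* and *Sct*. In edgeR 0 members were called at 1 µg/kg, where 0.591% of all genes were (0.4% as higher), and 0 at 3 µg/kg, where 1.11% were (0.645% as higher). At an unadjusted p under 0.05 there were 0 members at 1 µg/kg and 5 at 3 µg/kg (*Chga*, *Chgb*, *Nts*, *Pyy* and *Sct*), and DESeq2 also called 0 at both doses. At 0.01 to 0.3 µg/kg edgeR and DESeq2 called 0 members, and *Gcg* at 0.03 µg/kg was the only member at an unadjusted p under 0.05, with mouse 17 among its 3 mice. At 1 µg/kg *Pyy* was at 11.8, 14.7 and 14.7 CPM, at 3 µg/kg it was at 15.1, 19.2 and 14.7 CPM, and at 10 µg/kg it was at 16.9, 14.8 and 12.7 CPM. At 1 µg/kg *Nts* was at 36.2, 44.2 and 39.2 CPM, at 3 µg/kg it was at 52.0, 48.9 and 47.6 CPM, and at 10 µg/kg it was at 47.8, 50.0 and 47.0 CPM. Between 10 and 3 µg/kg neither gene was called, with log2 fold changes of -0.15 ± 0.26 SE for *Pyy* and -0.03 ± 0.28 SE for *Nts*. Among all genes tested, 12.4% at 3 µg/kg and 11.5% at 10 µg/kg had all treated mice above vehicle.

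*Sct* encodes secretin, which stimulates bicarbonate secretion and is expressed along the small intestine. It was at 19.1, 20.5 and 17.2 CPM in vehicle mice and 23.3, 25.8 and 34.8 CPM at 30 µg/kg. The groups did not overlap and the adjusted p was 0.0253, but the 1.48-fold difference was below the 1.5-fold minimum. *Sct* was called when mouse 3, 65 or 67 was left out (log2 fold change 0.59, 0.65 and 0.61), and without mouse 68 the log2 fold change was 0.37 (adjusted p = 0.177). By the adjusted p alone, 6 members were higher at 30 µg/kg, where 9.29% of all genes were, and 1 at 10 µg/kg, where 2.46% were. Hormones typical of more proximal gut were low and were not called at any dose. *Gip*, the incretin gene of K cells, was at 3.17, 3.59 and 1.59 CPM in vehicle and 3.94, 2.86 and 2.61 CPM at 30 µg/kg (log2 fold change 0.18 ± 0.48 SE, adjusted p = 0.839). At 3 µg/kg it was at 4.56, 4.69 and 5.17 CPM, above all vehicle mice and all mice at 10 and 30 µg/kg, without a call. *Cck*, whose product stimulates gallbladder contraction, was at 1.9, 1.83 and 1.94 CPM in vehicle and 3.15, 1.47 and 2.28 CPM at 30 µg/kg (log2 fold change 0.29 ± 0.41 SE, adjusted p = 0.681). *Ghrl*, which encodes ghrelin, was at 1.41, 1.76 and 1.66 CPM in vehicle and 1.93, 1.39 and 2.04 CPM at 30 µg/kg (log2 fold change 0.15 ± 0.33 SE, adjusted p = 0.796). At 30 µg/kg the mice overlapped vehicle for each of *Gip*, *Cck* and *Ghrl*. *Ghrl* shares 169 of its 1079 exon bases with *Gm44033* on the opposite strand, so part of its low count is uncertain.

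*Neurod1* (chr2:79452521-79456751, − strand) was at 3.73, 3.15 and 3.11 CPM in vehicle mice and 6.8, 5.8 and 5.86 CPM at 30 µg/kg. All treated values were higher, and the increase was 1.85-fold (log2 fold change 0.88 ± 0.29 SE, adjusted p = 0.035). The call rested on 43 to 53 counts per vehicle mouse and was lost when any of the 6 mice was left out (adjusted p = 0.0605 to 0.117), with the log2 fold change between 0.77 and 0.97. *Neurod1* shares 201 of its 2729 exon bases with *Cerkl* and 154 with *Gm26755*.

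**Figure D2:**
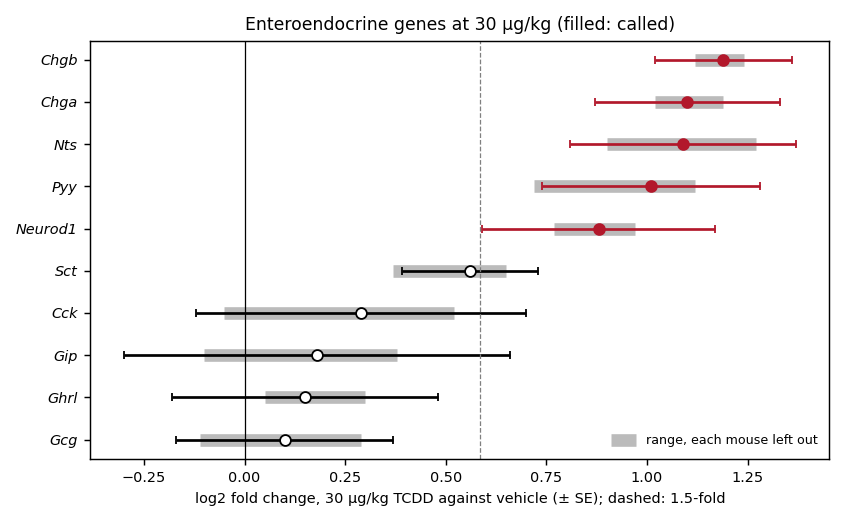
Log2 fold change of each gene at 30 µg/kg TCDD against vehicle (points, with SE bars from edgeR, n = 3 per group), the range when each of the 6 mice was left out in turn (grey bands), and the 1.5-fold limit (dashed line). Filled points were called. The bands of *Chga* and *Chgb* stay above 1, and those of *Gcg*, *Gip* and *Cck* cross 0.

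Over all 9 groups, 5 members differed (*Chga*, adjusted p = 0.0111; *Chgb*, 1.6e-05; *Pyy*, 0.0179; *Nts*, 0.0197; *Neurod1*, 0.0388), where 9.53% of all genes did. A rising linear trend over the rank of the dose passed (adjusted p of at most 0.05) in 6 members, these 5 and *Sct*, where 13.4% of all genes had one. The slope was positive in all 10 members and in 8391 of the 16741 genes tested. The slopes per dose step on the log2 scale were 0.144 ± 0.021 SE for *Chgb*, 0.134 ± 0.026 for *Nts*, 0.128 ± 0.026 for *Pyy*, 0.119 ± 0.028 for *Neurod1*, 0.115 ± 0.023 for *Chga* and 0.073 ± 0.015 for *Sct*. Within the 16 mice of the first index use, vehicle to 1 µg/kg, 0 members passed in edgeR (smallest unadjusted p = 0.191, for *Chga*), where 0.0403% of all genes rose. Within the 11 mice of the second use, 1 to 30 µg/kg, *Chga* (slope 0.343 ± 0.053 SE, adjusted p = 0.00541) and *Chgb* (0.397 ± 0.045, adjusted p = 0.000552) rose, where 1.02% of all genes did. *Nts* (0.22 ± 0.06, adjusted p = 0.0981), *Neurod1* (0.323 ± 0.085, 0.0823), *Gcg* (0.176 ± 0.061, 0.204), *Pyy* (0.114 ± 0.069, 0.524) and *Sct* (0.096 ± 0.053, 0.472) did not pass there. In these mice the slope of *Gcg* was thus above that of *Pyy*, with an unadjusted p of 0.0119 beside 0.121 in the same edgeR test. With index use as a covariate 0 members had a trend in edgeR, with *Chga* and *Chgb* at an unadjusted p under 0.05, where 0.687% of all genes had a rising trend. The slopes were then 0.136 ± 0.045 SE for *Chga* and 0.12 ± 0.041 for *Chgb*, close to those without the covariate but with larger SE, and 0.072 ± 0.049 for *Nts*, 0.069 ± 0.054 for *Neurod1*, 0.054 ± 0.048 for *Pyy* and 0.045 ± 0.028 for *Sct*.

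Ratios between members within a mouse do not depend on library scaling, and the pairs below were chosen after the values were seen. The *Pyy* to *Gcg* ratio of raw counts, both L cell hormones, was 0.456 ± 0.0694 (SD, n = 3) in vehicle. It was 0.631, 0.593, 0.603 and 0.587 on average from 0.01 to 0.3 µg/kg, and 0.875, 0.852, 0.711 and 0.883 from 1 to 30 µg/kg. All treated mice lay above all vehicle mice at each dose except 0.1 µg/kg (exact two-sided permutation p = 0.1 at the others, the smallest that 3 against 3 allows). Each of these comparisons used the same 3 vehicle mice, and no share over all gene pairs was computed. At 1 µg/kg the ratio was 0.69 in the mouse of the first index use and 1.12 and 0.819 in those of the second. The ratio of *Chgb* to *Gcg* was 2.03 ± 0.254 in vehicle and 4.48 ± 1.0 at 30 µg/kg, again without overlap (exact permutation p = 0.1). The ratio of *Nts* to *Gcg* was 1.53 ± 0.317 in vehicle and 3.22 ± 1.41 at 30 µg/kg, where the mice overlapped (exact permutation p = 0.2). Within the called pairs the ratios overlapped vehicle at 30 µg/kg. *Chga* to *Chgb* was 0.533 ± 0.0235 in vehicle and 0.504 ± 0.0628 (exact permutation p = 0.5), and *Nts* to *Pyy* was 3.32 ± 0.249 and 3.57 ± 0.713 (exact permutation p = 0.9).

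**Figure D3:**
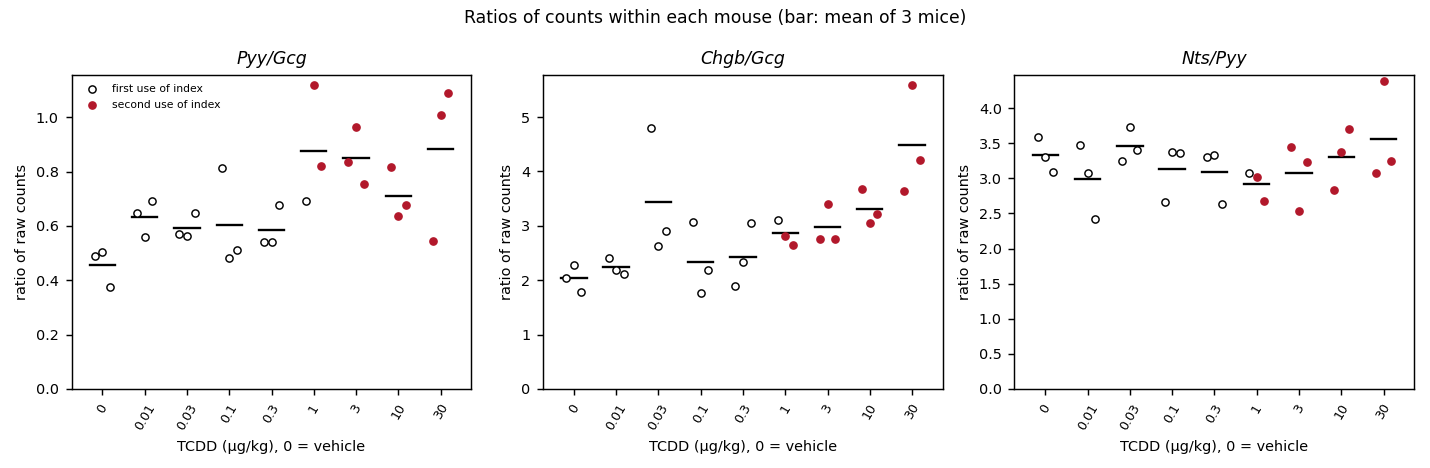
Ratio of raw counts of *Pyy* to *Gcg*, *Chgb* to *Gcg* and *Nts* to *Pyy* in each of 27 mice against TCDD dose, with 3 mice per dose and bars at the means (open points, first index use; filled points, second use). The first ratio is 0.456 on average in vehicle and 0.883 at 30 µg/kg, and the third overlaps vehicle at 30 µg/kg.

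Other enteroendocrine genes were read from lists by role. Of 15 tested transcription factors of the lineage, 4 increased at 30 µg/kg and 0 decreased, with a median log2 fold change of 0.58, where 5.42% of all genes were called as higher. They were *Pax6*, which activates hormone genes (2.13 ± 0.293 CPM in vehicle and 4.56 ± 0.457 at 30 µg/kg, adjusted p = 0.00586), *Lmx1a*, a factor of serotonin-producing cells (2.34-fold, adjusted p = 0.0225), *Myt1* (1.87-fold, adjusted p = 0.0496) and *St18* (2.06-fold, adjusted p = 0.0302). *St18* was also called at 10 µg/kg (3.14-fold, adjusted p = 0.00383). *Neurog3*, which commits progenitors to the lineage, had a log2 fold change of 1.3 ± 0.74 SE (adjusted p = 0.24). *Tph1*, the enzyme of serotonin synthesis in enterochromaffin cells, increased 2.02-fold (4.55 ± 0.527 to 9.22 ± 2.77 CPM, adjusted p = 0.0104), whereas *Sst* (somatostatin) had a log2 fold change of 0.16 ± 0.3 SE and *Tac1* of -0.67 ± 0.42 SE. Leaving out a single mouse ended the 30 µg/kg call of *Myt1* for any of the 6 mice (adjusted p up to 0.15), of *St18* for any but mouse 68 (up to 0.0983), of *Lmx1a* without mouse 2, 4, 67 or 68 (its log2 fold change ran from 0.94 to 2.0, the highest without mouse 3, beside 1.23 with all mice) and of *Tph1* without mouse 4 or 68. With index use as a covariate none of these calls remained.

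Of 20 tested granule and prohormone-processing genes, 2 increased and 0 decreased at 30 µg/kg, 19 had positive values, and the median log2 fold change was 0.61. The count is near the share of all genes called (9.4% in either direction, 5.42% as higher). The called genes were *Cpe*, carboxypeptidase E, which trims prohormones (7.7 ± 1.58 to 13.5 ± 0.134 CPM, 1.75-fold, adjusted p = 0.0271), and *Ptprn*, a granule membrane protein (2.42 ± 0.214 to 4.18 ± 0.541 CPM, 1.73-fold, adjusted p = 0.0383). *Pcsk1*, the convertase that releases GLP-1 from proglucagon, had a log2 fold change of 0.37 ± 0.16 SE (adjusted p = 0.129). The call of *Ptprn* was lost when any of the 6 mice was left out (adjusted p = 0.0558 to 0.131), that of *Cpe* without mouse 3, 4, 67 or 68 (up to 0.138), and both with index use as a covariate. A rising trend over doses was found for 9 of the 20, where 13.4% of all genes had one. Of 6 tested nutrient sensors 0 were called at 30 µg/kg by edgeR or DESeq2, with 2 of 6 at an unadjusted p under 0.05 in edgeR, *Ffar2* (log2 fold change -0.7 ± 0.29 SE) and *Sstr5* (1.12 ± 0.39 SE). *Ffar3*, a receptor for short-chain fatty acids, was called at 10 µg/kg (0.523 ± 0.161 to 2.71 ± 1.4 CPM, 5.08-fold, adjusted p = 0.0167), but not without mouse 2, 4, 57 or 59 (adjusted p up to 0.101) or with the covariate. Its highest value (3.78 CPM) was in mouse 59, which also had the highest summed CPM of tuft cell markers (179.5). Which cell type the *Ffar3* reads came from was not tested. Of 13 receptors for the hormones, 3 had enough counts to test (*Glp1r*, *Glp2r* and *Npy1r*) and 0 were called or had an unadjusted p under 0.05 in edgeR or DESeq2. The peptidases *Dpp4* and *Mme*, which cleave the hormones, were not called, with *Dpp4* at an unadjusted p of 0.0439.

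**Figure D4:**
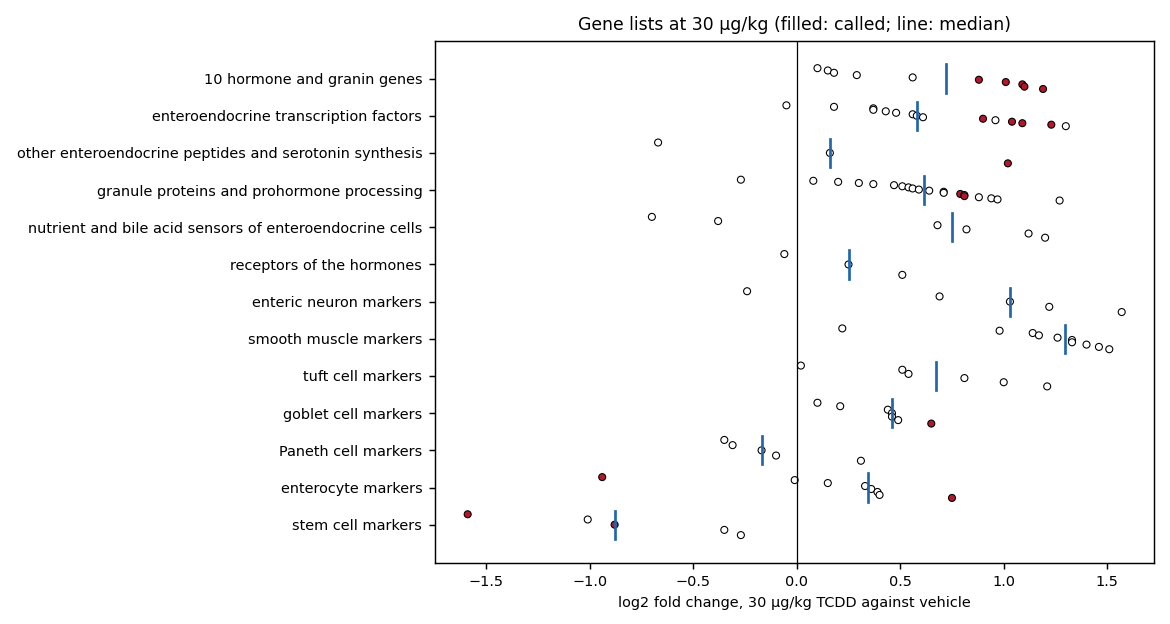
Log2 fold change at 30 µg/kg TCDD against vehicle for each tested gene of the 10 members and of 12 lists (points; filled points were called), with a line at the median of each list. The medians are 0.72 for the members, 0.58 for the transcription factors, 0.61 for the granule genes, 1.29 for smooth muscle and -0.88 for stem cell markers.

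Markers of other cell types moved beside these genes, and their part in the results was not tested. The 10 smooth muscle markers had a median log2 fold change of 1.29 at 30 µg/kg, with 0 called and 0 at an unadjusted p under 0.05 in edgeR (DESeq2 had 0 and 1), and their summed CPM ran from 45.2 to 146.8 in vehicle and from 57.1 to 430.2 at 30 µg/kg. The 12 enteric neuron markers summed to 8.8 to 14.9 CPM in vehicle and 12.1 to 16.8 CPM at 30 µg/kg, and of 5 tested 0 were called at 30 µg/kg by edgeR or DESeq2 (*Nos1* at an unadjusted p of 0.0126). Those 5 had a median log2 fold change of 1.03 at 30 µg/kg, with 4 positive, and 1.17 at 10 µg/kg, and 2 had a rising trend. The sum of this list was mostly *Ret* in mouse 26 (13.8 of 16.3 CPM). Apart from *Ret* and *Chat* (at most 4.32 CPM), no marker of the list exceeded 1.33 CPM in any mouse, so the sums say little about the others. *Chat*, which tuft cells also express, was called at 10 µg/kg (4.2-fold, adjusted p = 0.0499) and lost its call without any of 5 of the 6 mice (adjusted p up to 0.275). *Elavl4* and *Gap43* reached at most 12 and 5 counts in any mouse. Of 6 tested tuft cell markers, 5 increased at 10 µg/kg (*Dclk1*, *Trpm5*, *Pou2f3*, *Avil* and *Sh2d6*, 2.96- to 4.07-fold), where 1.76% of all genes did, and at 30 µg/kg edgeR called 0 and DESeq2 2, with 4 at an unadjusted p under 0.05 and a median log2 fold change of 0.68. When single mice were left out at 10 µg/kg, *Pou2f3* could lose its call (edgeR adjusted p up to 0.11) and the others kept theirs. The tuft cell sums at 10 µg/kg were uneven, at 153.8, 72.9 and 179.5 CPM, beside 34.7 to 48.1 CPM in vehicle. Of 5 tested stem cell markers, 2 decreased and 0 increased at 30 µg/kg, where 666 of all 16741 genes were called as lower. *Lgr5* was 3.01-fold and *Axin2* 1.84-fold lower (adjusted p = 0.00473 and 0.000349). The 7 goblet cell markers all had positive values at 30 µg/kg, 6 had a rising trend over doses, and their summed CPM ran from 21868.3 to 24650.2 in vehicle and from 30715.1 to 33556.0 at 30 µg/kg, without overlap. *Zg16* was the goblet cell gene called (1.57-fold, adjusted p = 0.000738). *Slc10a2* increased 1.68-fold (adjusted p = 0.0339) and *Fabp6* was 1.92-fold lower (0.012), while 0 of 5 Paneth cell markers were called or had an unadjusted p under 0.05 in edgeR or DESeq2. Mouse 65 differed from mice 67 and 68 at this dose, with *Fabp6* at 1492.2 CPM beside 680.2 and 474.5 CPM. Its *Slc10a2* was at 354.8 CPM beside 716.6 and 732.2 CPM. The log2 fold change of *Fabp6* was -0.94, and -1.59 without mouse 65, and it was not called without mouse 67 or 68, nor *Slc10a2* without any of 5 of the 6 mice. With index use as a covariate, *Axin2* alone of the named marker genes kept its call. Pancreas markers, from tissue beside the gut, summed to 34.7 CPM in mouse 52 (3 µg/kg), 2.28 CPM in mouse 68 (30 µg/kg) and at most 0.184 CPM elsewhere, with the islet genes *Ins1* and *Ins2* at 0 in all mice. Without mice 52 and 68, 2 members were called at 30 µg/kg, *Chga* and *Chgb*.

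Mouse 17, at 0.03 µg/kg, had low values in most of these genes. It was below all 14 other mice from vehicle to 0.3 µg/kg in 9 of the 10 members, and its members summed to 63.9 CPM against 146.6 to 184.9 CPM in the others. This mouse was singled out after the values were seen. The share of all genes in which it was the lowest was not computed, so whether the low values are particular to the members was not tested. *Gcg* was at 4.53 CPM (median of the others 19.4), *Nts* at 8.36 CPM (33.8), *Pyy* at 2.58 CPM (10.2), *Gip* at 0.547 CPM (3.51), *Cck* at 0.234 CPM (1.85), *Neurod1* at 1.17 CPM (3.16), *Chga* at 12.0 CPM (25.5), *Chgb* at 21.7 CPM (43.0) and *Sct* at 12.0 CPM (19.9). Below the median of the others, the members ranged from 1.66-fold for *Sct* to 7.9-fold for *Cck*, whose value rests on 3 counts. *Ghrl*, at 0.781 CPM, was within the range of the others. The transcription factor list (84.9 CPM against 66.9 to 92.9) and the goblet, Paneth, tuft, enterocyte and smooth muscle lists were within range in this mouse, while the list of other enteroendocrine peptides and serotonin synthesis was low (9.53 CPM against 13.4 to 31.5), as was the granule list (109.5 CPM against 117.7 to 134.8), and the stem cell list high (349.7 against 220.2 to 348.8). Within the transcription factor list, *Atoh1* and *Foxa1* reached 58.0 and 36.4 CPM in some mouse, and no other factor exceeded 5.7 CPM. The sum of that list therefore says little about its other factors. Without mouse 17, *Pyy* was called at 3 µg/kg (adjusted p = 0.0321), and the number of members called at 30 µg/kg stayed at 5.

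Most pairs of members were positively correlated among mice of the same dose. After subtracting the dose mean of log2 CPM, 43 of 45 pairs of members had a positive Spearman's rho over 27 mice, with a median of 0.39 and a range of -0.1 to 0.82 (40 pairs and a median of 0.32 without mouse 17). Mice share the same library for both genes of a pair, so these values are descriptive. The share of positive values over all gene pairs was not computed, so whether the members vary together more than other genes was not tested. *Nts* with *Sct* (0.82), *Pyy* with *Sct* (0.77) and *Cck* with *Gcg* (0.71) were the closest, followed by *Chga* with *Chgb* (0.68) and *Chga* with *Gip* (0.67). *Chga* was near 0 with *Gcg* (0.06), *Nts* (0.08) and *Neurod1* (-0.02). Of all genes tested, the 5 closest to *Chga* were *Igf2* (0.86), *Adgrg4* (0.84), *Spns3* (0.81), *Epb41l3* (0.8) and *Car13* (0.78). The 5 closest to *Chgb*, added because it was the more abundant granin, were *Gm20125* (0.74), *Pter* (0.72), *Hars2* (0.72), *Tigd4* (0.71) and *Mcm8* (0.68). *Gata4* had a rho of 0.67 with *Chga* and -0.43 with *Gcg*, and its highest values were 40.2 CPM in mouse 26 (0.1 µg/kg), 39.2 CPM in mouse 35 (0.3 µg/kg) and 26.8 CPM in mouse 67 (30 µg/kg).

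**Figure D5:**
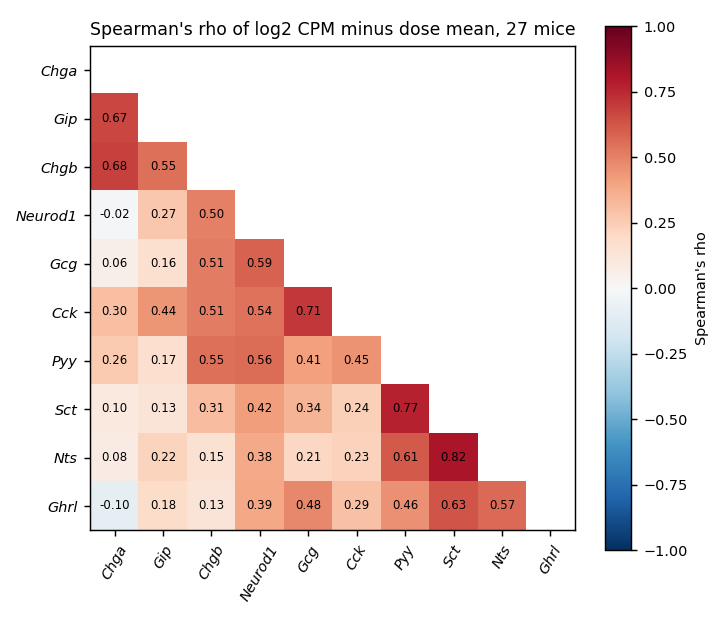
Spearman's rho between members, from log2 CPM minus the mean of the dose, over 27 mice (blue, negative; red, positive; scale from -1 to 1). *Nts*, *Sct* and *Pyy* form the warmest block (0.61 to 0.82), and *Chga* is near 0 with *Gcg*, *Nts* and *Neurod1*.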

How the data were processed

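RNA-Seq of ileal scrapings from 27 mice in 9 groups was analysed. The authors trimmed adaptors (Trimmomatic 0.33), aligned reads to GRCm38 (TopHat2 2.1.0) and deposited raw counts per Ensembl gene, 1 table per mouse, without normalization. The submitters' processing notes name HTSeq 0.6.1. Counting options and strand setting are not given in the sources used here, so reads shared by overlapping genes may be missing. Between 44.48% and 49.52% of reads in the tables matched no feature and were left out, as were the other closing rows. No pair of the 27 same-dose pairs of mice was within sampling noise. The chi-square over genes per degree of freedom was highest at 30 µg/kg, at 74.26 for mice 65 and 67 and 45.51 for mice 65 and 68. It was at most 22.55 for every other pair. Titles name separate mice, and mice were co-housed, with the cage not in the labels used here.

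Counts were fitted with edgeR 4.0.16 in R 4.3.3 (filterByExpr defaults, 16741 genes kept, all 10 members among them; TMM; quasi-likelihood fit of 9 groups, no covariate). The paper's P1(*t*) criterion was replaced by the adjusted p. SE is the log2 fold change divided by the square root of F. The fit was tested on simulated counts for 30 µg/kg against vehicle. By the call rule it recovered 26 of 100 genes changed 1.5-fold and 71 of 100 changed 2-fold, with 5 false calls. By the adjusted p alone it found 37 of those changed 1.5-fold and 71 of those changed 2-fold. A true 1.5-fold change lies at the fold change limit of the rule, which lowers its recovery by design. Genes changed near 1.5-fold can therefore be missed. CPM used TMM library sizes, and log2 CPM a prior count of 2. Exon lengths came from GENCODE M21 and upstream sequences from RefSeq (GRCm38.p6). Python 3.11.15, scipy 1.17.1 and pandas 2.3.3 were used.

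Named genes were all 10 members, list genes called at 10 or 30 µg/kg, the 5 genes closest to *Chga*, and *Cyp1a1*, *Slc10a2*, *Fabp6* and *Gata4*. Other list members that the text gives were chosen after their values were seen. Members and lists were chosen with earlier results of these data known. Alternatives were DESeq2 1.42.0, other scalings, no filter, no fold change minimum, the 6 mice compared, index use as a covariate or subset, and leaving out each mouse. Fits without mouse 17, and without mice 52 and 68, were added after seeing the data. The single result of 1 list gene is not reported here.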

Additional observations from a re-analysis of the deposited data

How the results depend on the processing

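At 30 µg/kg, *Chgb* was called under all 14 alternatives, while *Neurod1* lost its call under 9, *Pyy* and *Nts* under 4 each and *Chga* under 1. With index use as a covariate, the number of members called was 0 at 10 µg/kg and 1 at 30 µg/kg, 1 differed among the 9 groups and 0 had a trend, while the log2 fold change of *Chgb* at 30 µg/kg was 1.51 beside 1.19. Within the first index use 0 had a trend, and within the second 2. With library size alone, 0 were called at 10 µg/kg. That scaling moved the median log2 fold change of all genes to -0.11 from 0.02 and the share of higher calls at 30 µg/kg from 57.7% to 36.6%. With only the 6 mice compared, 2 members were called at 3 µg/kg (*Nts* and *Pyy*), and 1 without mouse 17. Without mice 52 and 68, 2 were called at 30 µg/kg, 0 between 30 and 3 µg/kg, and 1 differed among groups. Leaving out each mouse gave 2 to 5 members at 30 µg/kg (2 without vehicle mouse 4 or mouse 68), 0 to 1 at 10 µg/kg and 0 to 1 between 30 and 3 µg/kg. The log2 fold change of *Gcg* turned to -0.02 with library size alone, and that of *Ghrl* to -0.35 with index use as a covariate. Leaving out each mouse gave -0.05 to 0.52 for *Cck*, -0.11 to 0.29 for *Gcg* and -0.1 to 0.38 for *Gip*. The cause of these changes was not tested. No paired analysis was possible because mouse numbers are unique and do not tie mice across doses. The call of *Sct* was gained without mouse 3, 65 or 67. *Cck* and *Ghrl* rested on 20 to 28 counts per vehicle mouse, and what depth limits was not tested gene by gene.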
